A study of Mus musculus with 2 samples.

Results

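Checkpoint-receptor-negative CD8 T cells are the CD8 T cells of the lung library in which none of the receptor genes Pdcd1, Lag3, Havcr2, Tigit and Tnfrsf9 had a UMI, a count of 1 RNA molecule. They were 95 of the 191 CD8-gated cells and of the 8194 lung cells that passed the quality limits, out of 10437 such cells in the lung and muscle libraries together. A cell entered the CD8 gate with at least 1 UMI of Cd8a or Cd8b1 and at least 1 of Cd3e, Cd3d, Cd3g or Trac, no UMI of Foxp3, Xcr1, Clec9a or Cd79a, and fewer than 5 UMIs of Lyz2. Quality limits were at least 200 genes and at most 10% mitochondrial UMIs. Within the 95 cells the contrast was between 32 Ccl5-high cells, with at least 2 UMIs of the chemokine gene Ccl5, and 59 Ccl5-zero cells. The 4 cells with exactly 1 Ccl5 UMI entered neither side. The other 96 gated cells, with at least 1 checkpoint UMI, are called checkpoint-positive.

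The study sought targets against cachexia and muscle-related immune side effects, per its design text, in tumour-bearing mice given IgG, anti-PD-L1 or anti-CD8a. The cells came from lung of TB mice of the CAC mouse model, were selected on CD45 magnetic beads after enzymatic digestion and were read with a 10x 5' kit. Every cell compared here, checkpoint-negative or checkpoint-positive, is from that same library and carries no label of treatment. Strain, age, tumour and the number of mice are not given in the labels. With 1 library there was no replicate and no test. Intervals given in brackets are exact 95% intervals and cover counting error only, since cells of 1 library are not independent samples.

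CD8 T cells leave the thymus as naive cells, which recirculate between blood and lymphoid organs through homing receptors such as that encoded by Ccr7 and keep the transcription factors Lef1 and Tcf7. After meeting antigen they become effector and memory cells, which store Ccl5 messenger RNA, use interleukin 15 and interleukin 2 through Il2rb and, in mice, often carry the surface protein Ly6C. Pdcd1, Lag3, Havcr2, Tigit and Tnfrsf9 are induced by antigen receptor signalling and stay on in chronically stimulated cells. Rag1 and Rag2, the recombinase that cuts antigen receptor genes, and Dntt, which adds bases at the joins, are active in lymphocytes that are still assembling their receptors.

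The lung library held 34751225 UMIs over 8481 barcodes. Members held between 708 and 8319 UMIs per cell with a median of 3193, against a median of 4185 in checkpoint-positive cells. Ccl5-high cells held a median of 3157.5 UMIs (1342 to 6760) and Ccl5-zero cells a median of 3102 (708 to 8319), with median mitochondrial shares of 2.33% and 2.29%. Lung and muscle shared 64 barcodes, of which 1 was a member's and 1 a checkpoint-positive cell's. Levels below are CPM, the summed UMIs of a gene in a group scaled to a common total of all its genes.

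The gate itself used CD8 and CD3 genes, so their counts describe the members and do not check the label. Cd8b1, the beta chain of the CD8 coreceptor, had UMIs in 76 of 95 cells, and the other 19 were gated on Cd8a alone. Cd3e, a chain of the T cell receptor complex, had UMIs in 79 cells. Of the 7 genes of the natural killer cell list, Ncr1 and Klra8 were at 0 in members. The list held 173 UMIs (518 CPM) in 55 of the 95 cells with up to 24 in a cell. It stood at 6336 CPM in NK cells, but also at 6705 CPM in neutrophils and 810 CPM in B cells, so it does not single out NK cells. In Ccl5-high and Ccl5-zero members the list stood at 428 and 575 CPM, and its part in the results was not tested. Cells admitted on a single UMI were common, with 19 members at 1 CD8 UMI and 8 at 1 CD3 UMI. Lyz2, a myeloid gene, was at 0 in 39 members, 5 members stood just inside its limit at 4 UMIs, and 1 cell just outside at 5. Of the neutrophil list, 899 UMIs (2693 CPM) fell in 74 members, and 5 members held 20 or more of them. The neutrophil list came to 1480 CPM in Ccl5-high and 3613 CPM in Ccl5-zero cells, with Retnlg at 0 in Ccl5-high cells. Single cells held up to 100 such UMIs among Ccl5-high and up to 305 among Ccl5-zero cells. The erythroid markers Hba-a1 and Hbb-bs were at 0.

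The share of cells without a checkpoint UMI was lower in deeper cells, as counts over ranges of depth. The share of gated cells without one was 63.0% (17 of 27, 42.4 to 80.6) below 2000 UMIs, 56.6% (47 of 83) from 2000 to below 4000, 41.7% (20 of 48) from 4000 to below 6000 and 33.3% (11 of 33, 18.0 to 51.8) at 6000 or more. Over all depths it was 49.7% (42.4 to 57.0). After each gated cell was thinned to 1000 UMIs, 122 of 190 (64.2%) had no checkpoint UMI. Without thinning, 54.7% of CD4 T cells and 51.8% of NK cells were likewise at 0, against 95% of B cells and 83.8% of neutrophils. Thinned to 1000 UMIs, the shares were 67.2% in CD4 T cells, 73.2% in NK cells, 99.0% in B cells and 93.4% in neutrophils. In the gate 21 cells stood just outside the rule with exactly 1 checkpoint UMI and 12 had 2. A zero in a member therefore means not detected at this depth.

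**Figure D1:**
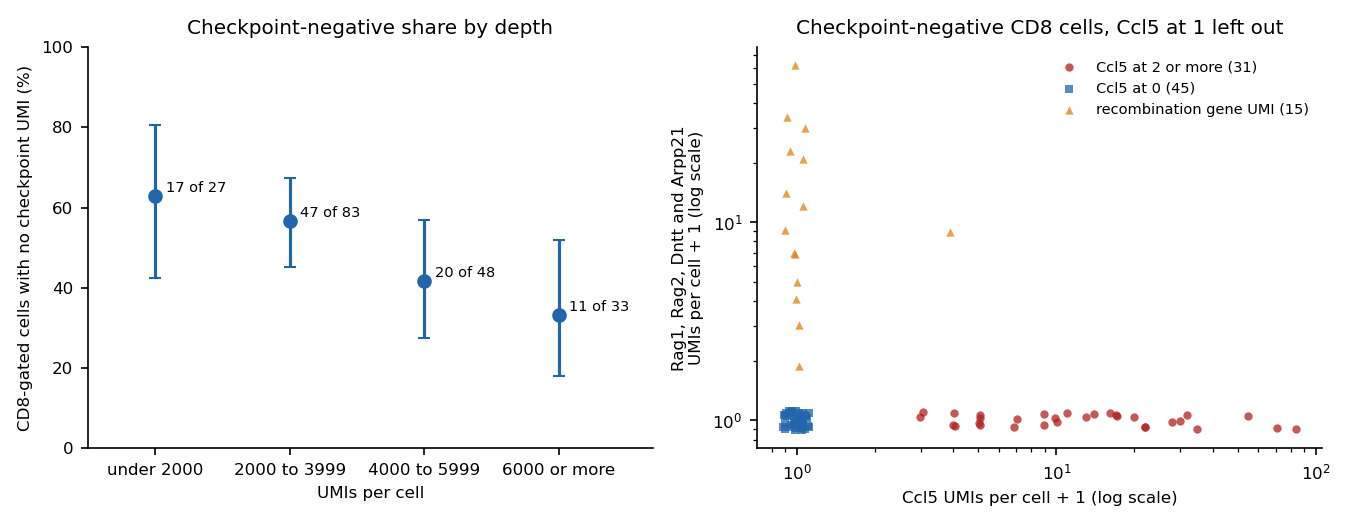
Left, share of CD8-gated lung cells with no checkpoint UMI (vertical axis, %) in 4 ranges of UMIs per cell, with exact 95% intervals; the share is 63.0% in the shallowest range and 33.3% in the deepest. Right, summed Rag1, Rag2, Dntt and Arpp21 UMIs (vertical, plus 1, log scale) against Ccl5 UMIs (horizontal, plus 1, log scale) in single checkpoint-negative cells, jittered; 14 of the 15 cells with such UMIs have no Ccl5 UMI.

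Ccl5, which recruits T cells and monocytes, chose the groups, so its values are a description. Ccl5-high cells had between 2 and 83 Ccl5 UMIs with a median of 9.5 and a level of 4895 CPM, and 2 of them stood at the limit of 2. The level was 5683 CPM in checkpoint-positive cells picked the same way, 8637 CPM in NK cells and 256 CPM in CD4 T cells. B cells, which should lack it, had 37.5 CPM with a UMI in 4.03% of cells at a median of 2285 UMIs. Ccl5-high cells were 33.7% of members (24.3 to 44.1) and 59.4% of checkpoint-positive cells (57 of 96, 48.9 to 69.3).

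A gene is called past the fold when its CPM ratio is at least 3 either way, the interval of the ratio excludes 1.5, the higher group holds at least 20 UMIs and no single cell holds over 25% of them. Of 4830 genes with 10 or more UMIs over both groups, 10 (0.207%) were past the fold higher in Ccl5-high than in Ccl5-zero cells and 61 (1.26%) lower, 1.47% in all. Of the 10 higher genes, 5 were in the memory and effector list: Ly6c2, Il2rb, Itgb1, Ahnak and Lgals1. Ly6c2 had 124 UMIs (1106 CPM) in Ccl5-high and 65 (325 CPM) in Ccl5-zero cells, a log2 ratio of 1.77 (1.32 to 2.22), and was seen in 24 of 32 and 12 of 59 cells. Il2rb, the shared beta chain of the interleukin 2 and 15 receptors, stood at 392 CPM in Ccl5-high and 125 CPM in Ccl5-zero cells (log2 ratio 1.65). Itgb1, the beta 1 integrin chain, stood at 383 and 95.1 CPM (2.01). Ahnak, a large scaffold protein gene, reached 285 and 65.0 CPM (2.13), and the galectin gene Lgals1 reached 259 and 70.1 CPM (1.88). Outside the lists Runx2, a RUNX transcription factor gene, Tnfaip3, an inhibitor of NF-kappa B signalling, Dennd4a and Cwc15 were past the fold too. On the lower side outside the lists, the most extreme ratios rested on 1 or 2 UMIs in Ccl5-high cells. Map3k5, a stress kinase gene, had 1 and 24 UMIs (log2 ratio -3.75, -9.11 to -1.14), Cbx5, a heterochromatin protein gene, 1 and 23 UMIs (-3.69, -9.05 to -1.07), and Smarca5, a chromatin remodeller gene, 2 and 32 UMIs (-3.17, -6.27 to -1.20). Mtss1, Taf1d, H2ax, Ptpra, Rybp, Sik2, Syne1, Eefsec and Ramp1 completed the 12 lowest. Of the cell cycle list 15 of 18 genes were measured, all with a ratio below 1 (median -1.67). Its member Hmgb2, a chromatin protein gene, stood at 134 and 615 CPM (-2.20, -3.08 to -1.42) and was past the fold lower. Without the recombination gene cells described below, 7 cell cycle genes were measured, 2 with a ratio above 1 and 5 below (median -0.65), 0 were past the fold and Hmgb2 came to -0.54 (-1.54 to 0.40). Leaving out the cells with 20 or more neutrophil-list UMIs, a step chosen after seeing the data, gave 12 higher and 67 lower genes, of which 8 and 56 were among the counts above.

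Of the naive and quiescence list, 22 of 23 genes were measured, 4 were past the fold lower in Ccl5-high cells and 0 higher, and the median log2 ratio was -0.64 against -0.32 over all 4830 genes. The 4 were Satb1, a chromatin organiser of T cells (508 and 1576 CPM, log2 ratio -1.63), Igfbp4, an insulin-like growth factor binding protein (26.7 and 270 CPM, -3.34, -5.66 to -1.71), Dapl1 (44.6 and 230 CPM, -2.37) and Ccr9, a receptor that guides thymic and gut T cells, with no UMI in Ccl5-high cells and 33 in Ccl5-zero cells (bounded at -2.63 or lower with a floor of 3 counts over the group). Of the 33 Ccr9 UMIs, 21 lay in the recombination gene cells described below, and without those cells Ccr9 had 0 and 12 UMIs and was not past the fold. The homing receptor gene Ccr7 differed less, at 125 CPM in Ccl5-high and 230 CPM in Ccl5-zero cells (-0.88, -1.86 to 0.01), and was seen in 9 of 32 Ccl5-high cells. Its Ccl5-zero level includes the recombination gene cells described below, in which Ccr7 was mostly not seen, and these lower that level. Lef1 stood at 419 and 1146 CPM (-1.45, -1.94 to -0.99), below the fold of 3, and was still seen in 20 of 32 Ccl5-high cells. Klf2, a quiescence factor that keeps S1pr1 on, was nearly level at 473 and 425 CPM. Of the memory and effector list, 23 of 32 genes were measured, 5 were past the fold higher, 0 lower, and the median was 0.62.

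The Ccl5-zero side was not of a single kind. Of the 59 cells, 14 (23.7%, 13.6 to 36.6) held UMIs of Rag1, Rag2, Dntt or Arpp21, a phosphoprotein gene known from thymocytes in mice, between 1 and 61 UMIs per cell with a median of 9.5, and 13 of them held 2 or more. The same genes were seen in 1 of 32 Ccl5-high cells, 1 of 96 checkpoint-positive cells, 1 CD4 T cell (0.781%), 0 of 56 NK cells (0 to 6.38%) and 1 B cell (0.168%). Outside the gate 37 of 8003 lung cells held them. Rag1 had 39 UMIs (813 CPM) in 10 of the 14 cells, Dntt 32 UMIs (667 CPM) in 11, Arpp21 145 UMIs (3023 CPM) in 12 and Rag2 3 UMIs in 3. This split was made after the data were seen and used those genes, so their levels describe how it was made. The 14 cells are called the recombination gene cells below. Of these 14, 1 was among the cells with the highest simulated-doublet scores, a cut that took 6.79% of all kept lung cells.

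What the split did not use also separated the 14 recombination gene cells from the other 45 Ccl5-zero cells. Cd4, the coreceptor of helper T cells, had 25 UMIs in 10 of the 14 cells (71.4%, 41.9 to 91.6) and none in the 45 (0 to 7.87%), although all had been gated on CD8. Of 3635 genes measured, 22 (0.605%) were past the fold higher in the recombination gene cells and 87 (2.39%) lower, 3% in all. Bcl2l1, an anti-apoptotic gene, had 23 and 6 UMIs (log2 ratio 3.6), and Bcl2, its relative, 4 and 97 UMIs. Il7r, the receptor for the survival cytokine interleukin 7, had 2 and 72 UMIs (-3.51, -6.58 to -1.60). Nkg7, a granule protein gene of cytotoxic cells, had 2 and 124 UMIs (-4.29, -7.35 to -2.41). Pik3cd, a phosphoinositide kinase gene of lymphocytes, had 2 and 70 UMIs (-3.47, -6.54 to -1.56), and Inpp4b 4 and 166 UMIs (-3.71). Igfbp4 had 0 and 54 UMIs. Satb1 reached 4044 and 797 CPM (2.34, 2.01 to 2.68), and Themis, a T cell receptor signalling gene of developing thymocytes in mice, 3732 and 487 CPM (2.94), and Bcl11b, a T lineage transcription factor, 3398 and 625 CPM (2.44). In these 3 genes 1 cell held over 25% of the UMIs (26.3%, 29.1% and 27.0%), so none was past the fold. Mad1l1, a spindle checkpoint gene, was past the fold higher with 49 and 9 UMIs (4.11, 3.07 to 5.32), as were Zfp280d, Ssbp2, Ano6, Hmgb1 and Prkcb, a protein kinase C gene (71 and 42 UMIs, 2.42).

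Ccr7 was seen in 2 of the 14 recombination gene cells, against 20 of the other 45, with 3 and 43 UMIs (log2 ratio -2.18, -4.51 to -0.53). The neutrophil list stood at 5191 CPM in the 14 cells and 3114 CPM in the 45, with up to 226 and 305 UMIs in a cell, and its part in these values was not tested. Mki67 or Top2a, which mark dividing cells, was seen in 5 of 14 (35.7%, 12.8 to 64.9) and in 3 of 45 (6.67%, 1.40 to 18.3). All 15 measured cell cycle genes had a ratio above 1, with a median log2 ratio of 2.78 against 0.20 over all genes, and 0 were past the fold. All 14 ribosomal protein and translation genes had a ratio below 1 (median -1.59), and 7 were past the fold lower. Of the naive list 5 of 21 measured genes were past the fold lower and 0 higher. The label naive-like, given to Ccl5-zero cells by the rule, therefore did not hold for these 14 cells: of its markers, Lef1 and Tcf7 were present (10 and 14 of 14 cells) and Ccr7 mostly was not. They are given no other name here.

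Rag1 is shown with Igfbp4 and Ahnak because these genes stand for the 3 sets of members: the recombination gene cells, the other Ccl5-zero cells and the Ccl5-high cells. The sequences are the 250 bases before each transcription start in RefSeq (build GRCm38.p6), read 5′ to 3′ on the strand of the gene, at chr2:101649533-101649782 (minus strand), chr11:99040994-99041243 (plus strand) and chr19:8989034-8989283 (plus strand). The deposited counts were made on another build, so these positions locate the printed sequence only. Capitals mark matches, on either strand, to the core letters TGTGGT of RUNX factors, GGTGTG of T-box factors and TCAAAG of TCF and LEF factors.
Rag1: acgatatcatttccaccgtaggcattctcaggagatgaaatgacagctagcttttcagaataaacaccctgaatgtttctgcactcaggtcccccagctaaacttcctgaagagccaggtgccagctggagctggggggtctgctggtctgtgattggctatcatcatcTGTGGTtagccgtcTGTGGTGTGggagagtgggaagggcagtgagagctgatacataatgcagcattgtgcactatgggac
Igfbp4: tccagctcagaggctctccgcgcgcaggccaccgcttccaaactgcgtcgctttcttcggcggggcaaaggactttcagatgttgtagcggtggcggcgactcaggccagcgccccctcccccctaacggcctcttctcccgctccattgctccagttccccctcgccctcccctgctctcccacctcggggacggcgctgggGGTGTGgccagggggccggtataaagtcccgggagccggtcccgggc
Ahnak: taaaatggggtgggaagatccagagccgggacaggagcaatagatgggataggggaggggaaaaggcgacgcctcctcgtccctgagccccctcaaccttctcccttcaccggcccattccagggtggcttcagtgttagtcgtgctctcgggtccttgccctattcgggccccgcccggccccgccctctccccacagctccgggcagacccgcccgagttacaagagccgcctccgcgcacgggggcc
Rag1 had 2 matches to the RUNX letters and 1 to the T-box letters, which overlaps the second RUNX match. Igfbp4 had 1 match to the T-box letters and Ahnak none to any. Of 32851 windows of the same length, 14% held the RUNX letters, 16.3% the T-box letters and 13.8% the TCF and LEF letters, so a match is common and describes the letters only.

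**Figure D2:**
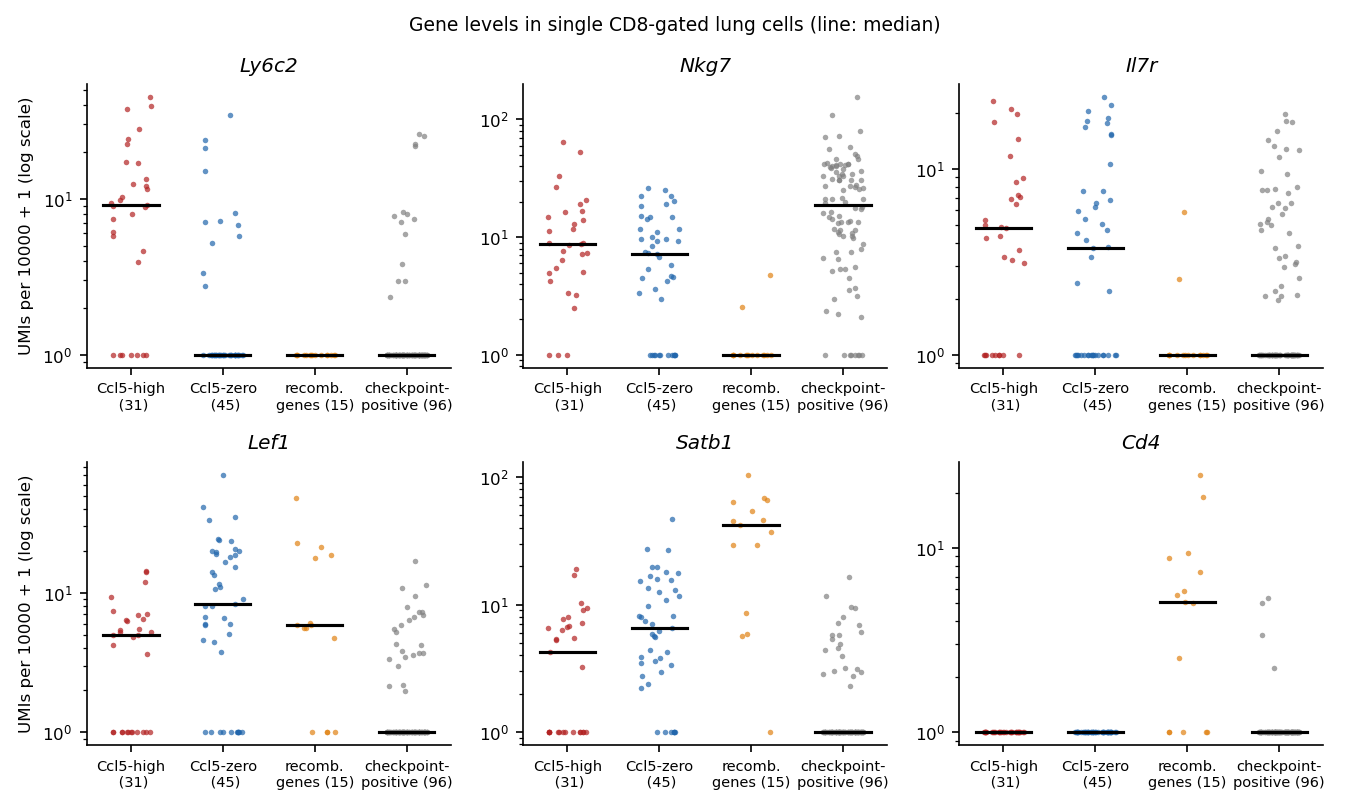
UMIs per 10000 plus 1 (vertical, log scale) of 6 genes in single cells, as points with the median as a line. Shown are 31 Ccl5-high cells, 45 Ccl5-zero cells and 15 cells with recombination gene UMIs of the checkpoint-negative set, and 96 checkpoint-positive cells. The 15 are the 14 recombination gene cells and the Ccl5-high cell that held such UMIs, which is left out of the 31. Ly6c2 was seen in 24 Ccl5-high cells and in none of the recombination gene cells, which alone among the checkpoint-negative cells hold Cd4.

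With recombination gene cells left out of both sides, which was chosen after seeing the data, 31 Ccl5-high cells stood against 45 Ccl5-zero cells. Of 4015 genes, 6 (0.149%) were then past the fold higher and 12 (0.299%) lower, 0.448% in all. The higher 6 were all among the earlier 10, and 8 of the lower 12 among the earlier 61. Lgals1 (263 and 52.7 CPM, log2 ratio 2.32, 1.16 to 3.66), Itgb1 (391 and 98.8 CPM, 1.98), Ahnak (32 and 12 UMIs, 1.88), Tnfaip3 (391 and 119 CPM, 1.72), Dennd4a (509 and 145 CPM, 1.81) and Cwc15 (27 and 12 UMIs, 1.63) were the 6. Ly6c2 came to 1.4 (0.95 to 1.85), Il2rb to 1.28 and Runx2 to 1.65, no longer past the fold. On the lower side Igfbp4 (27.2 and 356 CPM, -3.71, -6.03 to -2.08), Dapl1 (45.4 and 290 CPM, -2.67) and Il6st, the shared receptor chain of the interleukin 6 family (36.3 and 198 CPM, -2.44), stayed past it. Inpp4b, a phosphoinositide phosphatase gene, Scml4, Map3k5, Smarca2, Plcxd2, Ssbp3, Dis3l2, Pds5a and Hdac7 made up the rest. Satb1 came to -0.87, Themis to -1.42, and Bcl11b to -1.25, all below the fold. The naive list then had a median of -0.85 with 2 of 22 genes lower, and the memory list 0.35 with 3 of 23 higher, against -0.18 over all genes.

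**Figure D3:**
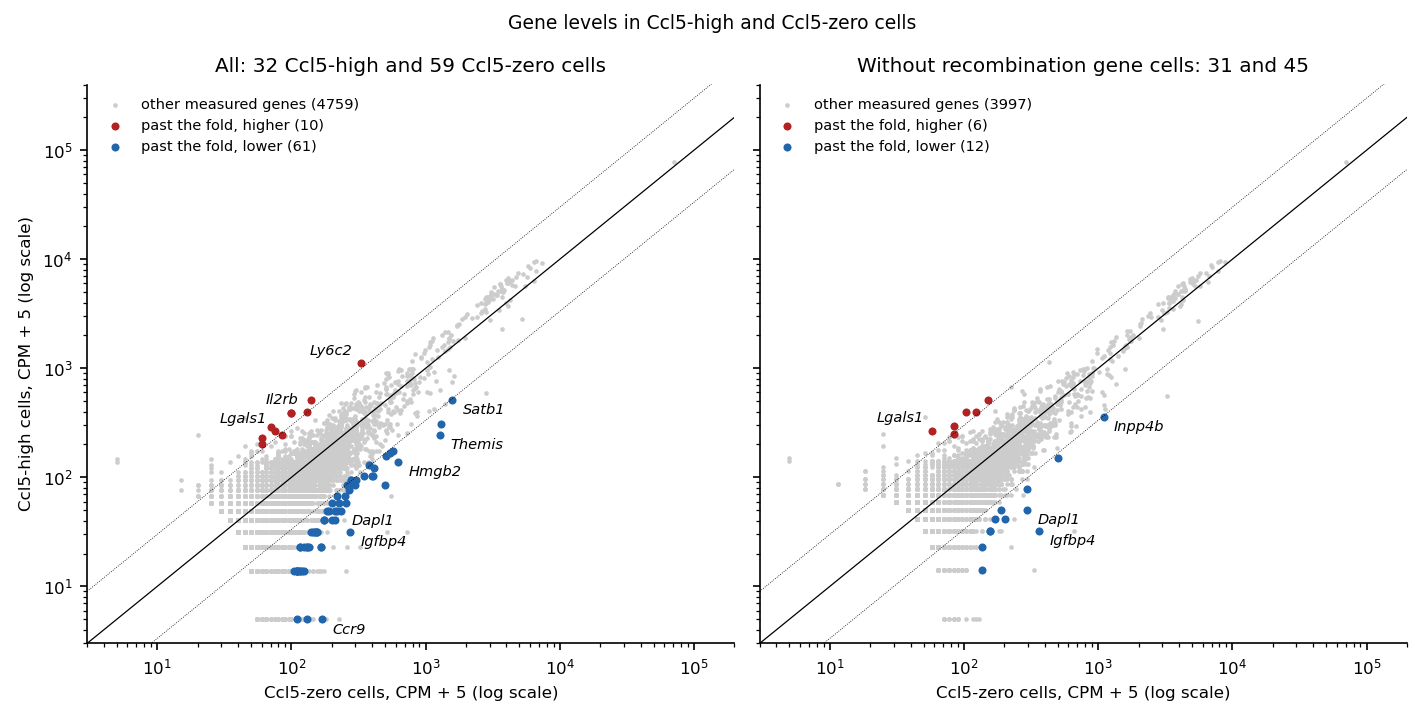
CPM plus 5 in Ccl5-high cells (vertical, log scale) against Ccl5-zero cells (horizontal, log scale) for each measured gene, with all cells on the left and without recombination gene cells on the right; the solid line marks equality and the dotted lines a ratio of 3. The genes past the fold were 10 higher and 61 lower on the left, and 6 higher and 12 lower on the right.

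Killing genes had few UMIs in the members, Ccl5-high cells included. Gzma had 3 UMIs in all 95 cells, Gzmb 2 and Gzmk 2, all granzyme genes, and Prf1, the pore-forming perforin, 8. A UMI of any of these was seen in 7 of 32 Ccl5-high cells (21.9%, 9.28 to 40.0) and in 4 of the 45 Ccl5-zero cells without recombination genes (8.89%, 2.48 to 21.2). The share was 59.6% in Ccl5-high checkpoint-positive cells and 85.7% in NK cells. After thinning to 1000 UMIs it was 6.25% in Ccl5-high members, 24.6% in Ccl5-high checkpoint-positive cells and 1.21% in B cells, which should lack these genes. Klrg1 and S1pr5, genes of circulating effector cells, had no UMI in members, and Cx3cr1 had 5. Nkg7 reached 972 CPM in Ccl5-high and 630 CPM in all Ccl5-zero cells, recombination gene cells included (log2 ratio 0.62). As given above, the recombination gene cells held far fewer Nkg7 UMIs than the other Ccl5-zero cells, which lowers that Ccl5-zero level. The NK receptor chain Klrd1 stood at 267 and 210 CPM in the same groups (0.35). Klrc1, its partner, had 8 UMIs in 6 Ccl5-high cells and none in Ccl5-zero cells, too few to count as measured. A UMI of Klrd1, Klrc1, Klrc2 or Klrk1 was seen in 14 of 32 Ccl5-high cells (43.8%) and 20 of the 45 (44.4%). After thinning these shares were 25% and 18.2%. Of the list of NK receptors on T cells 3 of 18 genes were measured, 1 with a ratio above 1 and 2 below (median -0.46). Itgae, Itga1, Cxcr6 or Zfp683, genes of tissue-resident T cells, were seen in 10 of 32 Ccl5-high cells (31.3%) and 14 of the 45 (31.1%), against 40 of 57 Ccl5-high checkpoint-positive cells (70.2%). The thinned shares were 12.5%, 13.6% and 43.9%, with 0.519% in B cells.

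The chemokine gene Ccl3 showed how 1 cell can set a sum. It had 3 UMIs in Ccl5-high and 102 in Ccl5-zero cells, of which a single cell held 91, and so was not past the fold. Neutrophils held Ccl3 at 2924 CPM.

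**Figure D4:**
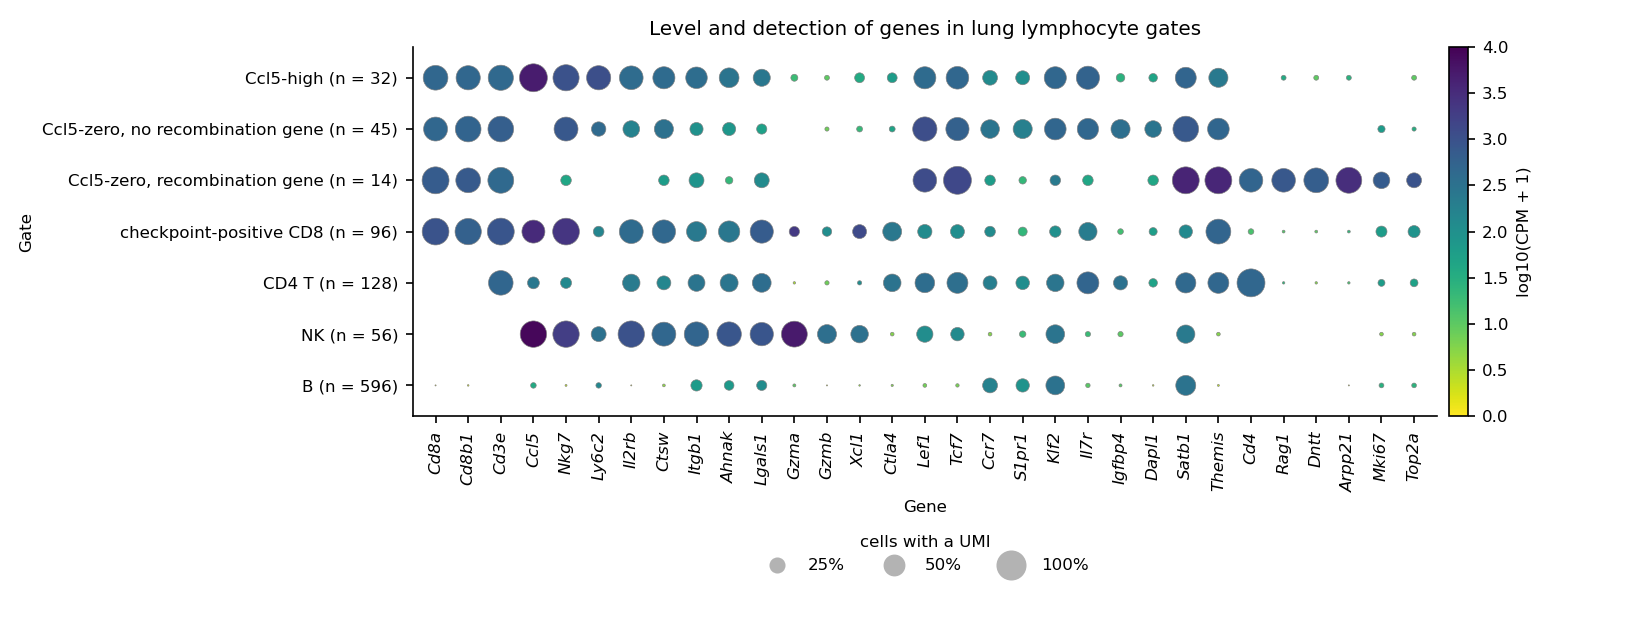
Levels (colour, log10 of CPM plus 1) and shares of cells with a UMI (dot size) of 31 genes in 7 gates of the lung library, with the 3 checkpoint-negative groups in the upper rows. Granzyme dots are small or missing in those rows, and Rag1, Dntt, Arpp21 and Cd4 stand out in the row of 14 recombination gene cells.

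Set against the 96 checkpoint-positive cells, 11 naive-list genes were past the fold higher in members and 5 cytotoxic granule genes lower. Of 8045 genes, 73 (0.907%) were past the fold higher in members and 167 (2.08%) lower, 2.98% in all. The 5 checkpoint genes were left out, and since checkpoint UMIs chose both sides, all these values describe the cells chosen. Of the naive list 11 of 22 measured genes were past the fold higher and 0 lower, with a median log2 ratio of 2.40 against -0.10 over all genes. Lef1 reached 884 and 123 CPM (2.85, 2.43 to 3.29), Tcf7 659 and 114 CPM (2.53) and Satb1 1138 and 131 CPM (3.12). S1pr1, the receptor for exit into blood and lymph, reached 129 and 21.9 CPM (2.56), and Ly6c2 611 and 151 CPM (2.02). Ccr7 differed less, at 195 and 123 CPM (0.67). Outside the lists Nsg2 had 55 and 10 UMIs (2.91), Rflnb 33 and 7 (2.69) and Dgke, a diacylglycerol kinase gene, 24 and 1 (5.04, 2.42 to 10.40). Rag1, with 43 and 5 UMIs (3.56), was among these genes through the recombination gene cells. Those cells also held 14 of the Dgke UMIs, against 2 in the other Ccl5-zero cells. The Satb1 level of members was raised by them too, as its levels above show. The neutrophil list stood at 2693 CPM in members and 1972 CPM in checkpoint-positive cells. Without the cells with 20 or more of its UMIs, 74 genes were higher and 183 lower, sharing 65 and 150 with the counts above.

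On the lower side, 5 of 12 cytotoxic granule genes were past the fold, with a median of -2.05. The memory and effector list split, with 6 of 32 genes past the fold lower and 2 higher (median -0.81), as did the list of effector differentiation and circulation, with 3 of 9 lower and 1 higher (median -1.01). Gzma had 3 UMIs in members and 945 in checkpoint-positive cells, but in only 3 and 13 cells (log2 ratio -7.85, -10.13 to -6.29). Gzmk had 2 and 28 UMIs (-3.35, -6.47 to -1.37), and Cst7, a cystatin of cytotoxic cells, 86.9 and 385 CPM (-2.15). Of the other inhibitory and exhaustion genes 5 of 18 were lower and 0 higher. Ctla4, a further checkpoint receptor that the rule did not use, stood at 41.9 and 252 CPM (-2.59, -3.50 to -1.78). Nr4a2, induced by receptor signalling, stood at 44.9 and 302 CPM (-2.75), and Tox, a regulator of exhausted cells, at 329 and 969 CPM (-1.56), short of the fold. Outside the lists the neural adhesion gene Dscam had 1 and 124 UMIs and Nrgn, a calmodulin-binding protein gene, 0 and 137 UMIs. Without recombination gene cells 50 genes were higher and 173 lower, sharing 44 and 143 with the counts above.

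**Figure D5:**
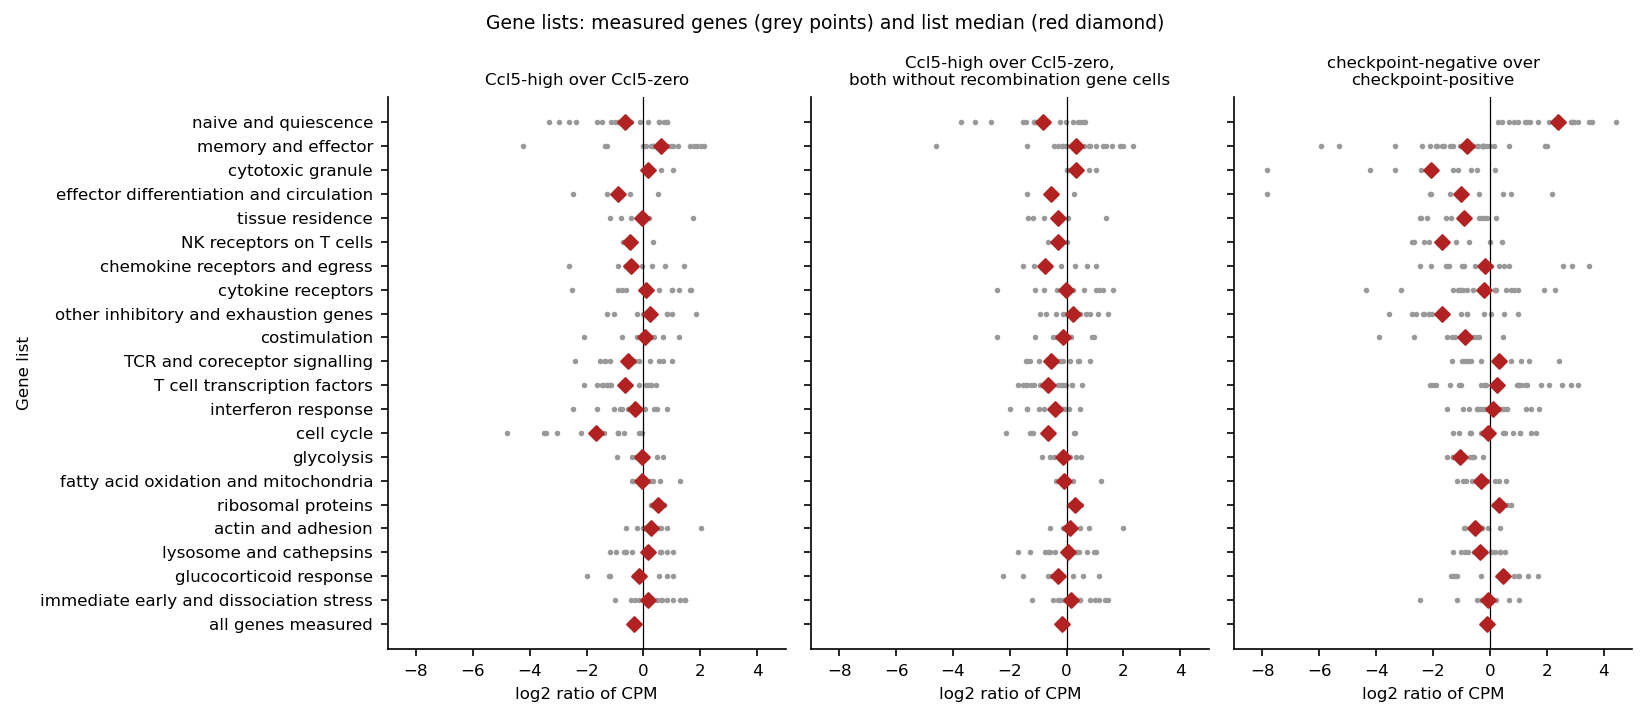
Log2 ratios of CPM (horizontal) of the measured genes of each gene list as grey points, with the list median as a red diamond, in 3 comparisons; genes with no UMI in a group are at their bound. The naive list lies right of 0 against checkpoint-positive cells (median 2.40) and left of 0 in Ccl5-high over Ccl5-zero cells (median -0.64).

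Ccl5-high cells could also be set against the 57 Ccl5-high checkpoint-positive cells. Of 5454 genes, 18 (0.33%) were past the fold higher in the checkpoint-negative ones and 110 (2.02%) lower, 2.35% in all. Ly6c2 led the lists on the higher side, with 1106 and 185 CPM (log2 ratio 2.58, 2.09 to 3.09) and UMIs in 24 of 32 and 9 of 57 cells. Tcf7 (481 and 86.9 CPM, 2.47), Satb1 (508 and 110 CPM, 2.21), Klf2 (473 and 151 CPM, 1.64), Klf3 (205 and 45.3 CPM, 2.18), the kinase gene Txk (321 and 56.7 CPM, 2.50) and Ly6a (259 and 71.8 CPM, 1.85) were higher too. Lower were Cxcr6, a chemokine receptor gene (44.6 and 355 CPM, -2.99), Id2, a memory and effector regulator (187 and 597 CPM, -1.67), Lgals1 (259 and 812 CPM, -1.65), Nkg7 (972 and 2974 CPM, -1.61) and Tox (205 and 1013 CPM, -2.30). Cd44 (214 and 208 CPM, 0.04), Itgb1 (383 and 253 CPM, 0.60) and Ahnak (285 and 257 CPM, 0.15) lay within the fold. Median depth was 3157.5 UMIs in the checkpoint-negative and 4249 in the checkpoint-positive cells.

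T cell receptor V gene use was not part of the rule. Exactly 1 of 22 functional Trbv genes was seen in 45 of 95 members, and 17 different genes among them. Trbv13-1 was in 7 cells (15.6%, 6.49 to 29.5), Trbv12-2 in 5 (11.1%) and Trbv13-3 and Trbv17 in 4 each (8.89%). Of the 7 Trbv13-1 cells, 3 were recombination gene cells. Another 2 were Ccl5-high, or 1 without the Ccl5-high cell that held recombination gene UMIs. The effective number of genes (inverse Simpson index) was 12.4 in members and 7.19 in 52 checkpoint-positive cells, in which 17 genes were seen too. Between Ccl5-high cells the order was the other way, at 6.40 in 16 members and 8.45 in 26 checkpoint-positive cells. The index tends to be lower with fewer cells, and it was not computed at equal numbers of cells. The V genes in the most checkpoint-positive cells were Trbv3 and Trbv31 with 11 cells each (21.2%, 11.1 to 34.7) and Trbv1 with 10 (19.2%), and in members these took 3 (6.67%), 1 (2.22%) and 2 cells (4.44%). The Trbv31 member and 1 of the Trbv1 members were recombination gene cells. Among 16 Ccl5-high members Trbv12-2 took 4 (25%, 7.27 to 52.4), against 1 of 27 Ccl5-zero members. A shared V gene does not show a shared clone.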

How the data were processed

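The authors' deposited matrices hold raw UMI counts of 2 libraries. Per the submitters' processing notes they come from Cell Ranger 7.0.1 and GRCm39. Its settings are not given in the sources used here. UMI counts were summed over the cells of each group in Python 3.11.15 and given as CPM with exact Poisson intervals, shares with exact Clopper-Pearson intervals and ratios with exact conditional binomial intervals, all at 95%. A group without counts was bounded with a floor of 3 counts over the group. Doublets were not removed beyond the gate; as an alternative the 556 lung cells (6.79%) with the highest share of simulated neighbours were left out, 5 of them members. Thinning to 1000 UMIs used 1 random draw. The ratio rule was tried on Poisson counts simulated from the pooled profile of the members. That simulation had no variation between cells beyond depth, so it does not cover mixed cells. edgeR 4.0.16 and DESeq2 1.42.0 gave alternative scaling factors only. Of 387 list genes 383 were found under their symbols. Named genes are list genes past the fold, otherwise well counted ones, and outside the lists, leaving out receptor segments, mitochondrial and unnamed models, those among the 12 highest and 12 lowest ratios past it (8 each way against checkpoint-positive cells), with the 3 most frequent Trbv genes; results on some genes are not reported here; those named in the comparisons built on the recombination gene split were chosen after their values were seen. The members and lists were chosen with earlier results of these data known. In a sum over cells, fewer cells with a gene and less RNA per cell cannot be told apart, so shares of cells are given beside levels.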

Additional observations from a re-analysis of the deposited data

Results flagged for a closer look

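The muscle library lies outside the comparisons above. By the same gate it held 4 CD8 T cells among 2243 cells that passed the limits (0.178%, 0.0486 to 0.456), against 191 of 8194 in lung (2.33%), and 3 of the 4 had no checkpoint UMI. The library is listed here because it holds such cells in data the report does not use. Muscle lost 3301 barcodes to the mitochondrial limit and lung 273, and 4 cells are too few for a level of any gene.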

How the results depend on the processing

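The count of genes past the fold in Ccl5-high over Ccl5-zero cells, 71, came to 39 with Cd8b1 required, 11 with Lyz2 at 0, 6 after thinning to 1000 UMIs before the gates, 119 with the B cell level subtracted, 24 at 50 UMIs or more, 47 at a fold of 4, 18 without recombination gene cells and 23 without those or neutrophil-marked cells. The count against checkpoint-positive cells, 240, came to 115 with Lyz2 at 0, 33 thinned, 528 with the B cell level subtracted and 107 at 50 UMIs or more. The memory list median in Ccl5-high over Ccl5-zero cells was 1.81 with the B cell level subtracted and 0.31 without both kinds of cell, and against checkpoint-positive cells -1.85 with that subtraction. With Ccl5 at 5 or more 23.2% of members were Ccl5-high. The most frequent Trbv gene took 66.7% of those Ccl5-high cells in which exactly 1 Trbv gene was seen after thinning. At full depth such cells were 16 of 32, and their number after thinning is not given. Log2 ratios that changed sign were those of Hmgb2, Ccl5-high over Ccl5-zero (0.50 with Lyz2 at 0, 0.38 thinned), Lgals1, Ccl5-high over Ccl5-zero (-0.093 thinned) and Tnfaip3, Ccl5-high over Ccl5-zero (-0.53 thinned); fewer cells and UMIs remain in both settings, and the causes were not tested. The checkpoint-negative share ranged from 42.9% to 52.3% where the gate was applied anew, and was 64.2% where the cells gated at full depth had their checkpoint genes thinned, and the naive list median from -1.18 to -0.47 over Ccl5-zero and from 1.37 to 2.66 over checkpoint-positive cells. Over 30 named genes 505 of 685 alternative values stayed past the fold in Ccl5-high over Ccl5-zero. Against checkpoint-positive cells 1301 of 1445 did, over 62 genes. These counts include settings that could not end a call, namely a fold of 2 and no minimum count. Against checkpoint-positive cells the changed Ccl5 limits could not either. Genes with too few UMIs in a setting gave no value, so thinning gave values for 14 of the 30 and 38 of the 62. In every setting with a value, 0 of the 30 and 8 of the 62 genes stayed past the fold. Genes near 20 UMIs are limited by depth. The settings that drop recombination gene or neutrophil-marked cells were chosen after seeing the data. No paired analysis was possible because there was 1 lung library and no replicate.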

Other observations

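The 14 ribosomal protein genes all had a ratio above 1 in Ccl5-high over Ccl5-zero cells (median log2 ratio 0.52, or 0.28 when recombination gene cells were left out) and in members over checkpoint-positive cells (0.34), with none past the fold. Genes of glycolysis, 12 of 12 measured, had ratios below 1 in members over checkpoint-positive cells (median -1.04), and none was past the fold. The interferon response list was near level there (median 0.12 over 22 genes), as was the cell cycle list (-0.08 over 18). Members there include the recombination gene cells, in which cell cycle genes were higher than in the other Ccl5-zero cells. Between the Ccl5-high cells of both sides, all 12 measured cell cycle genes were lower in members. Their median was -1.15, against -0.35 over all genes, and 0 were past the fold.

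Mki67 or Top2a was seen in 1 of 32 Ccl5-high members and in 25 of 96 checkpoint-positive cells (26%). Among Ccl5-zero members it was seen in 5 of 14 recombination gene cells and in 3 of the other 45. These shares were not thinned, and median depth was 3193 UMIs in members and 4185 in checkpoint-positive cells. Fam241a, a gene outside the lists and past the fold in members over checkpoint-positive cells, reached 321 CPM in Ccl5-high members, against 56.7 CPM in Ccl5-high checkpoint-positive cells, and had 1 UMI in the recombination gene cells, against 77 in the other Ccl5-zero cells. It was named after its values were seen.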
